A study of Mus musculus with 2 samples.

Results

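The lymphocyte marker genes are a set of 34 genes that mark T cells, natural killer (NK) cells, and B and plasma cells. They were chosen by symbol, and 33 of the 34 were read by a probe set naming that gene alone, out of 19938 genes on the array. Lck, the kinase that starts T cell receptor signalling, had no such probe set in the table used here and is not analysed. Hepatocellular carcinoma tissue was compared between the HLF-deficient and the wild-type genotype, both given DEN (diethylnitrosamine, a liver carcinogen), to find genes expressed differently. HLF is a transcription factor of the PAR bZIP family. Each genotype had 1 array, and the word tumour below means the tissue read on that array. How the gene was disabled, in which cells, the strain, sex and age of the mice, the timing of DEN and any pooling of tumours are not given in the sources used here.

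T cells recognise peptides through the T cell receptor, whose signal passes through the CD3 and zeta chains to the kinases Lck and Zap70. Cytotoxic T cells and NK cells kill targets with perforin and granzymes, and B cells signal through Cd79a and Cd79b. The normal liver holds many NK and innate-like T cells, and lymphocytes in liver tumours are studied as a measure of immune surveillance.

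The main observation was that these markers lay in the lower or middle part of the range of all genes. By mean level over both arrays, 53.7% of all genes lay below the highest marker. No measured difference of a marker reached 2-fold. Among the 14619 genes that reached the background floor given below, 1.5% were higher and 0.363% lower by 2-fold. A count of 0 among so few markers is near those shares. Levels are RMA expression on a log2 scale. They were set against 1205 probe sets of olfactory and vomeronasal receptor genes (Olfr, Vmn1r and Vmn2r), which serve as a background because liver is not known for using them. The 95th percentile of this background over both arrays, a log2 level of 2.97, is called the floor. At or above it lay 17 of the 33 measured markers in the HLF-deficient tumour and 22 in the wild-type tumour. The 17 were all among the 22, and 11 markers lay below the floor on both arrays. The same lean ran through all genes. Of 14619 genes that reached the floor on either array, 704 did so in the wild-type tumour alone. In the HLF-deficient tumour alone, 154 did so. Among the 5287 of these genes in the range of mean level of the 22 markers, the counts were 617 and 131. Only 5 markers reached 1 log2 unit above the floor on either array.

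Differences are HLF-deficient minus wild-type, so a negative value means lower in the HLF-deficient tumour. With 1 array per genotype there is no SD, interval or p-value between tumours, and precision is limited by this number of arrays. Where a marker lay below the floor on 1 array, its difference is a bound taken from the floor, and where it lay below on both, no difference is given. The comparison covered 14619 genes that reached the floor on either array, among them 22 markers. In a bulk sample, fewer cells of a type and less RNA per cell cannot be told apart.

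The arrays as a whole were close, with r = 0.986 over 35556 probe sets, a correlation across features and not across replicates. Hlf itself was at 3.79 in the HLF-deficient tumour and 5.13 in the wild-type tumour, 2.54-fold lower, and the labels do not say whether its probes lie in the deleted part. All 11 measured hepatocyte markers, such as Alb, were at 9.25 or above on both arrays.

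**Figure D1:**
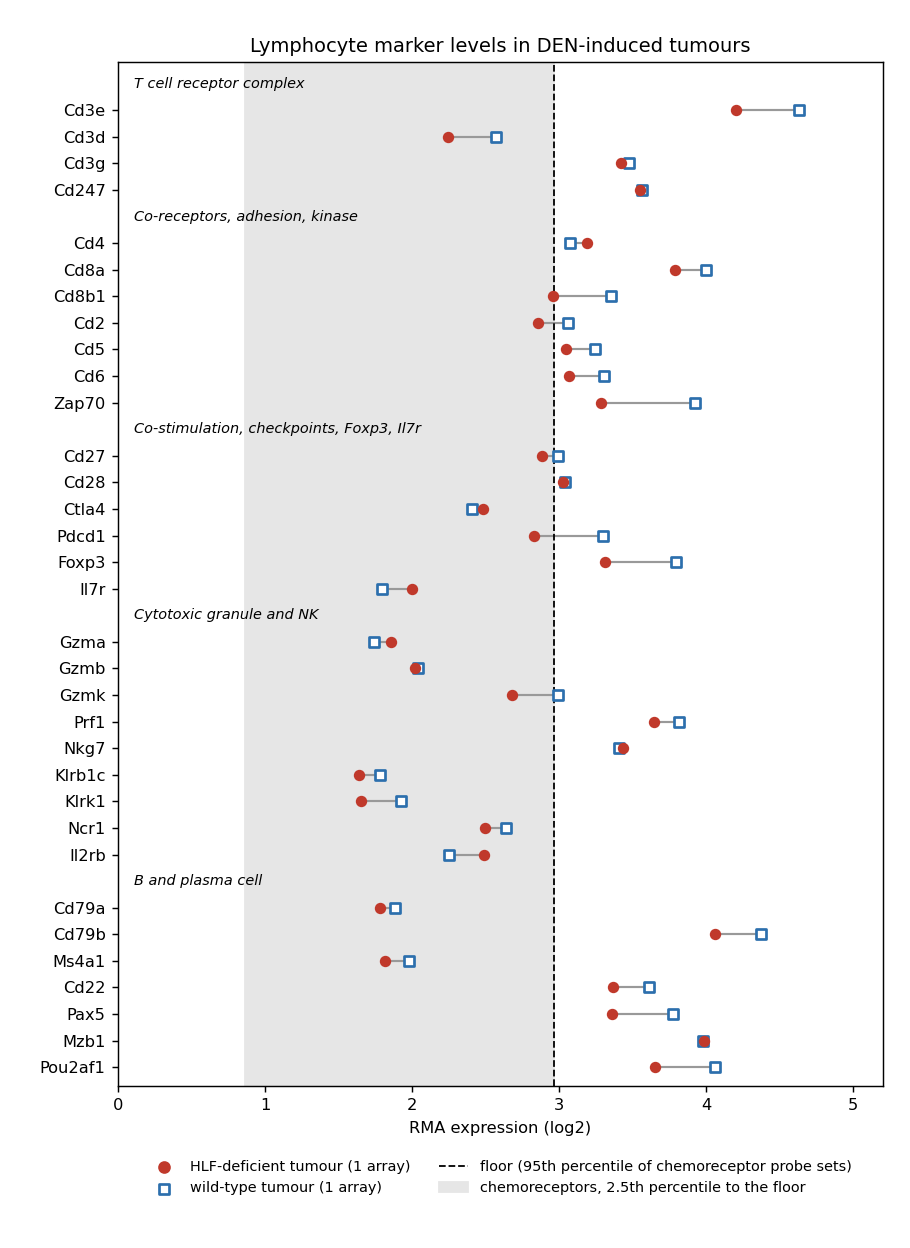
Log2 RMA expression (x axis) of the 33 measured lymphocyte markers in the HLF-deficient tumour (filled circles) and the wild-type tumour (open squares), 1 array each, grouped by role. The dashed line is the floor of 2.97. No marker lies above 4.63, and 11 lie left of the line on both arrays.

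The promoters of Cd3e and Pax5 are shown because these are the T cell and the B cell marker with the largest difference among markers above the floor on both arrays that have 1 start site in the RefSeq table used. The sequences run from 250 bases before to 50 bases after the start site, on build GRCm38.p6, and 25 of the 34 marker genes had an entry, 30 start sites in all. They were searched on both strands for the PAR bZIP site to which HLF is known to bind, in its forms TTATGTAA and TTACGTAA, for the octamer ATGCAAAT of B cell promoters, for the ETS core GGAAGT and for the RUNX core TGTGGT. Matches of different motifs may overlap by some letters. The capitals in the Cd3e sequence mark an ETS core on the opposite strand, and the Pax5 sequence has no capitals because none of the 5 motifs matched there. Cd3e lies at chr9:45009562-45009861 on the minus strand and Pax5 at chr4:44710645-44710944, also on the minus strand.
Cd3e: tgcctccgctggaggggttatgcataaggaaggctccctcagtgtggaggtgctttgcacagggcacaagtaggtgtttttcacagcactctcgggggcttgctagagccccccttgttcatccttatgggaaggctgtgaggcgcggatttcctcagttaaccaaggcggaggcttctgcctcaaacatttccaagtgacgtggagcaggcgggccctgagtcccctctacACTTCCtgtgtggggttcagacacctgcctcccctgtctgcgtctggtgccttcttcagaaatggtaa
Pax5: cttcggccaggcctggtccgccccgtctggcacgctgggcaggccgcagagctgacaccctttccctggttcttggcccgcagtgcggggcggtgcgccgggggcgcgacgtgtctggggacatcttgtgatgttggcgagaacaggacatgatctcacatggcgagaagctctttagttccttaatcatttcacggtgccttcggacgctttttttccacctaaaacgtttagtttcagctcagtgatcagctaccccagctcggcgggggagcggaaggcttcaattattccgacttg

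Neither form of the PAR bZIP site, nor the octamer, was found in any of the 30 marker windows. Among all 32851 windows of this length, 0.938% held TTATGTAA, 0.119% held TTACGTAA and 1.74% held the octamer. The ETS core was in 12 of the 30 windows, those of 11 genes including Cd3d, Cd3e, Cd247, Cd79a and Zap70, against 23.8% of all windows. The RUNX core was in 11 of the 30, those of 10 genes including Gzma, Gzmb, Prf1, Nkg7 and Klrk1, against 16.8% of all windows. These are counts of letters in short windows and say nothing of binding.

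The T cell receptor complex is made of the signalling chains CD3 epsilon, delta and gamma and the zeta chain. Cd3e was at 4.20 in the HLF-deficient tumour and 4.63 in the wild-type tumour, a difference of -0.43, or 1.35-fold lower. Only 4 of the 1205 chemoreceptor probe sets had a mean as high. The adjacent Cd3g was at 3.42 in the HLF-deficient tumour and 3.47 in the wild-type tumour, a difference of -0.05. Cd3d lay under the floor on both arrays, at 2.24 in the HLF-deficient tumour and 2.57 in the wild-type tumour. Cd247, the zeta chain, was at 3.55 in the HLF-deficient tumour and 3.56 in the wild-type tumour, a difference of -0.01. The small negative values of Cd3g and Cd247 were positive under each of 4 other scalings (each array centred on its median or on its chemoreceptor probe sets, quantile normalization, and removal of the loess trend with level), so neither has a settled sign.

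The co-receptors bind MHC molecules beside the receptor. Cd4, the helper cell co-receptor, was at 3.19 in the HLF-deficient tumour and 3.07 in the wild-type tumour, and its difference of 0.12 was the highest of the 22 markers compared. Cd8a, a chain of the cytotoxic cell co-receptor, was at 3.79 in the HLF-deficient tumour and 4.0 in the wild-type tumour, a difference of -0.21. Its adjacent partner gene Cd8b1 was at 2.96 in the HLF-deficient tumour, just below the floor, and 3.35 in the wild-type tumour, at least 1.30-fold lower. Both CD8 chains had negative values and Cd4 a positive one.

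Zap70, the kinase recruited to the phosphorylated CD3 and zeta chains, had the largest difference of the 22 markers compared. It was at 3.29 in the HLF-deficient tumour and 3.92 in the wild-type tumour, a difference of -0.63, or 1.55-fold lower. It was the only marker beyond 1.5-fold, and it was inside 1.5-fold, between -0.54 and -0.49, under each of those 4 scalings. Cd5 and Cd6, adjacent genes for scavenger-type receptors that tune T cell signalling, gave nearly the same values. Cd5 was at 3.04 in the HLF-deficient tumour and 3.24 in the wild-type tumour, and Cd6 was at 3.07 in the HLF-deficient tumour and 3.30 in the wild-type tumour. Cd2, an adhesion receptor, had 2.86 in the HLF-deficient tumour, short of the floor, and 3.06 in the wild-type tumour.

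Co-stimulatory receptors and checkpoints set how strongly a T cell responds. Cd28, the main co-stimulator, was at 3.02 in the HLF-deficient tumour and 3.04 in the wild-type tumour, level at the floor and positive under the 4 other scalings. Ctla4, the inhibitory receptor encoded next to Cd28, lay under the floor on both arrays, at 2.48 in the HLF-deficient tumour and 2.41 in the wild-type tumour. Pdcd1, which encodes the checkpoint receptor PD-1, had 2.83 in the HLF-deficient tumour, short of the floor, and 3.30 in the wild-type tumour, at least 1.26-fold lower. Foxp3, the defining factor of regulatory T cells, was at 3.31 in the HLF-deficient tumour and 3.80 in the wild-type tumour, a difference of -0.48, or 1.40-fold lower. Cd27, a co-stimulator of the TNF receptor family, was close to the floor, with 2.88 in the HLF-deficient tumour and 2.99 in the wild-type tumour. Il7r, the interleukin-7 receptor of naive and memory T cells, was well within the background, at 2.0 in the HLF-deficient tumour and 1.80 in the wild-type tumour.

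Genes of killing and of NK cells were mostly at background. Of these 9 markers, 6 were below the floor on both arrays. Gzma, a granzyme, was at 1.85 in the HLF-deficient tumour and 1.74 in the wild-type tumour, and Gzmb, another granzyme, was at 2.02 in the HLF-deficient tumour and 2.04 in the wild-type tumour. Klrb1c, which encodes the NK1.1 antigen, was at 1.64 in the HLF-deficient tumour and 1.78 in the wild-type tumour. Klrk1, the activating receptor NKG2D, was at 1.65 in the HLF-deficient tumour and 1.92 in the wild-type tumour. Klrb1c had 39.7% and Klrk1 34.4% of chemoreceptor probe sets at or above its mean, so both sat in the middle of the background. Ncr1, the NK receptor NKp46, was at 2.5 in the HLF-deficient tumour and 2.64 in the wild-type tumour. Il2rb, a receptor chain for interleukins 2 and 15, was at 2.49 in the HLF-deficient tumour and 2.25 in the wild-type tumour.

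The other markers of this group were closer to or above the floor. Prf1, perforin, was at 3.64 in the HLF-deficient tumour and 3.82 in the wild-type tumour, a difference of -0.17. Nkg7, a granule membrane protein, was at 3.43 in the HLF-deficient tumour and 3.40 in the wild-type tumour, a difference of 0.03. Gzmk, a granzyme encoded next to Gzma, was at 2.68 in the HLF-deficient tumour and, just above the floor, at 2.99 in the wild-type tumour.

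B cell markers were split in the same way. Cd79b, a signalling chain of the B cell receptor, was at 4.06 in the HLF-deficient tumour and 4.38 in the wild-type tumour, a difference of -0.32, or 1.25-fold lower. Its partner Cd79a was in the background on both arrays, at 1.78 in the HLF-deficient tumour and 1.88 in the wild-type tumour. Ms4a1, the CD20 antigen, was there too, at 1.81 in the HLF-deficient tumour and 1.98 in the wild-type tumour. These defining B cell genes could thus not be told from background, while only 4 of 1205 chemoreceptor probe sets reached the mean of Cd79b.

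Pax5, the factor that commits cells to the B lineage, was at 3.36 in the HLF-deficient tumour and 3.78 in the wild-type tumour, a difference of -0.41. Pou2af1, a co-activator of octamer-binding factors in B cells, was at 3.65 in the HLF-deficient tumour and 4.06 in the wild-type tumour, also a difference of -0.41. Cd22, an inhibitory lectin of B cells, was at 3.37 in the HLF-deficient tumour and 3.61 in the wild-type tumour, a difference of -0.24. Mzb1, a chaperone of antibody-secreting cells, was level, at 3.98 in the HLF-deficient tumour and 3.97 in the wild-type tumour.

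As a set, 19 of the 22 markers compared had negative values, and their median measured difference was -0.22. Of the 22, 5 reached the floor in the wild-type tumour alone, so their negative sign was fixed by the floor rule. Over the 17 markers above the floor on both arrays the median was -0.21. No measured difference of the 22 was beyond 2-fold in either direction, where 1.5% of all 14619 genes were higher and 0.363% were lower by 2-fold. At 1.5-fold, 0 were higher and 1 was lower, against 6.36% higher and 3.12% lower among all genes, and a single marker carries the lower count. All genes compared had a median of 0.07, with 41.7% negative. The 17 T and NK markers compared had a median of -0.20 and the 5 B and plasma cell markers one of -0.32.

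Genes of similar level are the closer comparison. The mean level of the 22 markers lay between 2.83 and 4.42, and the 5287 genes in that range had a median difference of -0.15, with 69.1% negative. The 3567 genes with a mean level of 3 to 4 had a median of -0.16, and the 3003 genes of 5 to 6 had one of 0.20. The 79 chemoreceptor probe sets that reached the floor on either array, which mark no immune cell, had a median of -0.23, and the central 95% of their differences ran from -0.94 to 0.27. All 22 markers, Zap70 included, lay within that range. Over all 1205 chemoreceptor probe sets, most of them under the floor, the central 95% ran from -0.57 to 0.29, which left out Zap70 alone. Pairs of probe sets for the same gene in the markers' level range gave an SD of 0.29 for the difference of a single probe set (118 genes), which covers no spread between mice or tumours.

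**Figure D2:**
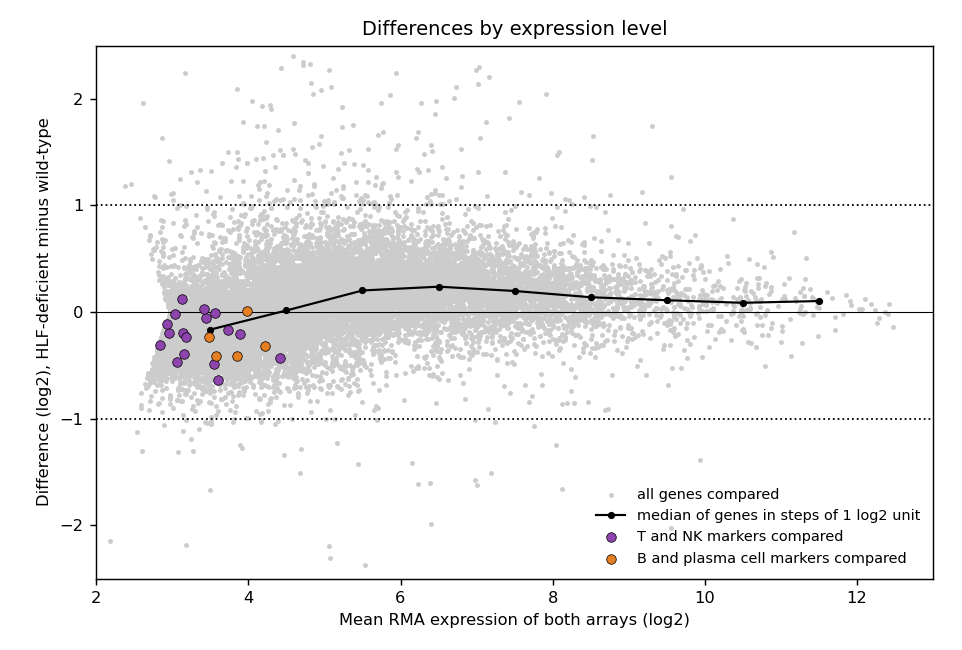
Difference in log2 expression, HLF-deficient minus wild-type (y axis), against mean log2 expression of both arrays (x axis) for all genes compared (grey), T and NK markers (purple) and B and plasma cell markers (orange), with the median of genes in steps of 1 log2 unit (black) and 2-fold as dotted lines. The markers lie between 2.83 and 4.42. The black line is drawn from the middle of the step of 3 to 4, so markers of lower level lie left of its start. Its medians are -0.16 for 3 to 4 and 0.01 for 4 to 5, and 9 genes beyond 2.5 lie outside the axis.

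Other lymphocyte genes gave mixed signs. For the 20 partners of T cell receptor signalling, 12 were compared, 6 of them negative, with a median of 0.08 and 0 beyond 2-fold. Genes that reached the floor in the wild-type tumour alone are negative by that rule, here 3 of the 12. The 9 above the floor on both arrays had a median of 0.18. Lcp2, the adaptor SLP-76, was at 5.47 in the HLF-deficient tumour and 4.96 in the wild-type tumour, and Fyn, a Src family kinase of many cell types, was at 5.07 in the HLF-deficient tumour and 4.65 in the wild-type tumour. Lcp2 is also used by myeloid cells. Lat, the membrane adaptor phosphorylated by Zap70, had 2.95 in the HLF-deficient tumour, short of the floor, and 3.29 in the wild-type tumour, and the adaptor Grap2 was at least 1.21-fold lower, with its HLF-deficient value below the floor.

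Of 16 transcription factors of T and NK cells, 11 were compared, with 8 negative, a median of -0.24 and 0 beyond 2-fold. Of the 11, 2 reached the floor in the wild-type tumour alone, and the 9 above it on both arrays had a median of -0.09. Gata3, the factor of T helper 2 cells, had 2.58 in the HLF-deficient tumour, short of the floor, and 3.37 in the wild-type tumour, at least 1.32-fold lower. Ikzf2, found in regulatory T cells, had 2.85 in the HLF-deficient tumour, short of the floor, and 3.36 in the wild-type tumour. Ets1 had the highest value, a difference of 0.37, and Zbtb7b, which directs CD4 T cells, was at 6.23 in the HLF-deficient tumour and 6.14 in the wild-type tumour, negative after quantile or loess normalization.

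Of 23 further cytotoxic and NK genes, 8 were compared and 14 were below the floor on both arrays. Of these 8, 7 were negative, with a median of -0.14 and 0 beyond 2-fold. Of the 8, 4 reached the floor in the wild-type tumour alone, so their negative sign was fixed by the floor rule. The 4 above the floor on both arrays had a median of -0.05. Ctsw, a cathepsin of killer cells, had 2.71 in the HLF-deficient tumour, short of the floor, and 3.43 in the wild-type tumour, at least 1.38-fold lower. Hcst, the adaptor through which NKG2D signals, was at least 1.32-fold lower. Tyrobp, an adaptor shared by NK and myeloid cells, was at 5.28 in the HLF-deficient tumour and 5.06 in the wild-type tumour. Klrb1b, an inhibitory NK receptor chosen for mention after its values were seen, was well above the floor, with 6.07 in the HLF-deficient tumour and 6.14 in the wild-type tumour, with a sign that differed between scalings. Its ligand Clec2d was at 8.34 in the HLF-deficient tumour and 8.76 in the wild-type tumour.

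Among 17 genes of activation, exhaustion and regulatory T cells, 7 were compared, with 4 negative and 0 beyond 2-fold, and a median of -0.05 that was positive under the 4 other scalings. The 6 above the floor on both arrays had a median of 0.20 as deposited. Tnfrsf9, the activation receptor 4-1BB, was at 3.98 in the HLF-deficient tumour and 3.33 in the wild-type tumour, 1.57-fold higher. Entpd1, the ectonucleotidase CD39 of regulatory T cells, endothelium and myeloid cells, was at 5.04 in the HLF-deficient tumour and 4.45 in the wild-type tumour. Tigit, a checkpoint receptor, had 2.71 in the HLF-deficient tumour, short of the floor, and 3.27 in the wild-type tumour. Tnfrsf18, the receptor GITR, differed by -0.29.

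Of 26 further B and plasma cell genes, 15 were compared, with 9 negative and 0 beyond 2-fold as deposited, and a median of -0.11 that was 0.01 with each array centred on its median. Derl3, of endoplasmic reticulum degradation in secretory cells, was at 5.24 in the HLF-deficient tumour and 4.31 in the wild-type tumour, 1.91-fold higher, and passed 2-fold with each array centred on its median (1.05) or on its chemoreceptor probe sets (1.03). Prdm1, the plasma cell factor Blimp-1, was at 3.14 in the HLF-deficient tumour and 2.62, short of the floor, in the wild-type tumour. Tnfrsf13c, the BAFF receptor, was at 4.17 in the HLF-deficient tumour and 4.56 in the wild-type tumour, and the kinase Blk had 2.70 in the HLF-deficient tumour, short of the floor, and 3.10 in the wild-type tumour.

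Antibody genes were above the floor. The brighter of 2 probe sets of Igha, the constant region of IgA, was at 6.13 in the HLF-deficient tumour and 5.90 in the wild-type tumour, and the other differed by 0.06. The 3 probe sets naming Ighm, the constant region of IgM, differed by -0.33, -0.07 and 0.40. These probe sets may share sequence with other immunoglobulin genes, so their values are uncertain. Jchain, which joins secreted IgA and IgM and was chosen after its values were seen, was at 5.57 in the HLF-deficient tumour and 5.45 in the wild-type tumour, negative after quantile or loess normalization. No probe set here named a T cell receptor constant gene alone.

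**Figure D3:**
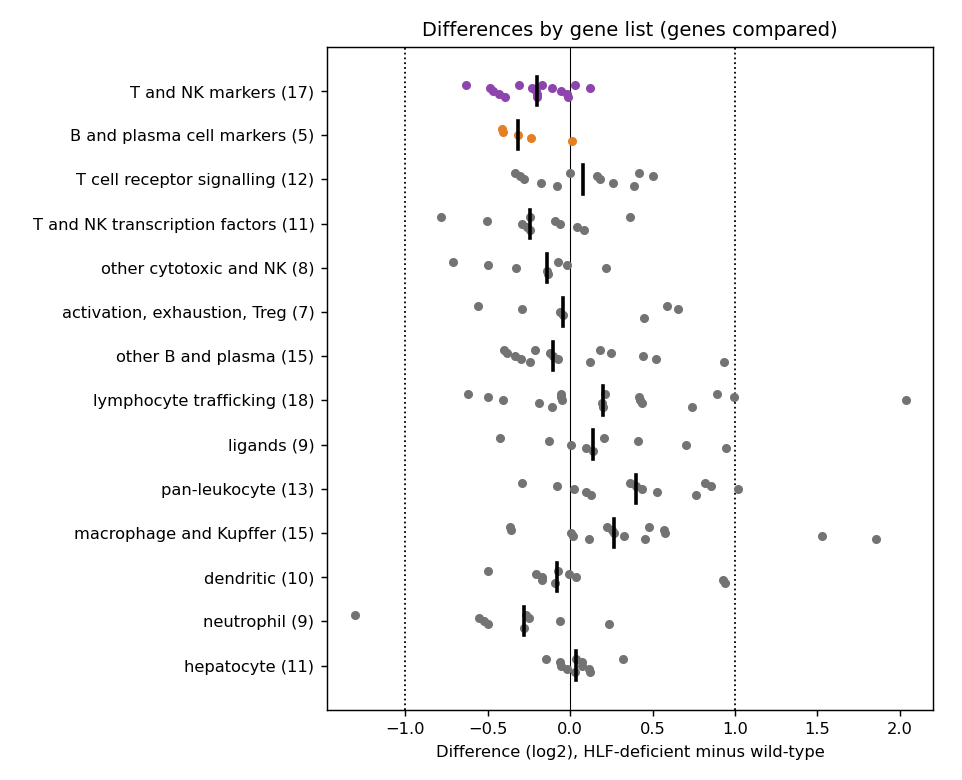
Difference in log2 expression, HLF-deficient minus wild-type (x axis), for each gene compared (points) in 14 lists, with the number of genes in brackets, the list median as a black bar and 2-fold as dotted lines. Values are as measured, also where 1 array was below the floor. The medians are -0.20 for T and NK markers and -0.32 for B and plasma cell markers, against 0.40 for pan-leukocyte genes.

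Of 15 genes shared by all leukocytes, 13 were compared, 11 had positive values and the median was 0.40, positive under every scaling tried. These genes lay at mean levels of 3.41 to 7.06, and the 10566 genes in that range had a median of 0.10 with 61.3% positive. At mean levels of 5 to 6 all genes had a median of 0.20 with 22.4% negative, so among all genes the sign went with level on these arrays. Ptprc, the leukocyte common antigen CD45, was at 5.44 in the HLF-deficient tumour and 4.59 in the wild-type tumour, 1.81-fold higher. Cd53, a leukocyte tetraspanin, was at 6.18 in the HLF-deficient tumour and 5.16 in the wild-type tumour, 2.02-fold higher as deposited and inside 2-fold after quantile (0.87) or loess (0.88) normalization. Coro1a and Was, which regulate actin in blood cells, differed by -0.08 and -0.29, the first positive with either centring of the arrays.

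Of 15 macrophage and Kupffer cell markers, 13 had positive values and 2 were higher by 2-fold, with a median of 0.26. The 12561 genes in their range of mean level had a median of 0.09 with 60.1% positive, and those at 6 to 7 had a median of 0.24 with 17.2% negative. Cd68 was at 6.71 in the HLF-deficient tumour and 5.18 in the wild-type tumour, and Cd14 was at 7.38 in the HLF-deficient tumour and 5.53 in the wild-type tumour. The only 2 negative values of this list were those of Clec4f and Vsig4, at -0.37 and -0.36. The list does not separate Kupffer cells from other macrophages, so a change in Kupffer cells was not tested. Summed on a linear scale, the 15 macrophage genes came to 1300 in the HLF-deficient tumour and 959 in the wild-type tumour, the 14 measured pan-leukocyte genes to 653 in the HLF-deficient tumour and 449 in the wild-type tumour, and the 17 lymphocyte markers above the floor on both arrays to 197 in the HLF-deficient tumour and 232 in the wild-type tumour. These sums are not like for like. Only 3 lymphocyte markers lay at least 1 log2 unit above the floor on both arrays, so background forms part of their sum. The pan-leukocyte sum includes 1 gene below the floor on both arrays. All 15 macrophage markers were above the floor on both arrays, and the part of other leukocytes in the lymphocyte values was not tested.

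Of 12 neutrophil markers, 9 were compared, 8 of them negative, with a median of -0.28. Of the 9, 3 reached the floor in the wild-type tumour alone, and the 6 above it on both arrays had a median of -0.26. The list median was between -0.18 and -0.12 under the 4 other scalings. Most of these genes had a mean level of 3 to 4, where all genes had a median of -0.16 with 72.2% negative. Ngp, a neutrophil granule gene, had 1.95 in the HLF-deficient tumour, within the background, and 3.26 in the wild-type tumour, at least 1.22-fold lower. Dendritic cell and MHC class II genes had a median of -0.08 over 10 compared, 7 of them negative. That median was positive under the 4 other scalings. As deposited, H2-Ab1 was 1.90-fold and Cd74 1.92-fold higher, both genes that macrophages and B cells also use. Cd209a differed by -0.50 and Batf3 by -0.21. A further class II gene, H2-Eb1, named after its values were seen, differed by -0.17.

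Chemokines and adhesion molecules that draw lymphocytes held the single gene beyond 2-fold in the lymphocyte lists. Cxcl13, the chemokine that attracts B cells and follicular helper T cells, was at 6.88 in the HLF-deficient tumour and 4.84 in the wild-type tumour, 4.10-fold higher. Its receptor Cxcr5, chosen after its values were seen, was in the background on both arrays, at 1.64 in the HLF-deficient tumour and 1.65 in the wild-type tumour. The difference of Cxcl13 was between 1.88 and 2.16 under the 4 other scalings.

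Other pairs of chemokine and receptor varied. Cxcl16, a membrane-bound chemokine of myeloid and sinusoidal cells, was at 5.47 in the HLF-deficient tumour and 4.48 in the wild-type tumour, 1.99-fold higher and past 2-fold with either centring of the arrays (1.12 and 1.09), and its receptor Cxcr6 was in the background on both arrays, at 2.66 in the HLF-deficient tumour and 2.59 in the wild-type tumour. The interferon-induced ligands of Cxcr3 differed among themselves. Cxcl9 was at 6.95 in the HLF-deficient tumour and 7.0 in the wild-type tumour, and Cxcl11 differed by -0.05. Cxcl10 was at 4.97 in the HLF-deficient tumour and 4.24 in the wild-type tumour, 1.67-fold higher. Its difference was between 0.73 and 0.86 under the 4 other scalings. Cxcr3 was at 3.09 in the HLF-deficient tumour and 3.28 in the wild-type tumour. Ccl19 and its receptor Ccr7, which guide naive T cells, had negative values. Ccl19 was at 4.29 in the HLF-deficient tumour and 4.91 in the wild-type tumour, with 5 probe sets between -0.62 and -0.58 that may read near-identical copies of the gene, and Ccr7 was at 3.90 in the HLF-deficient tumour and 4.39 in the wild-type tumour. Cxcr6, Cxcl9, Cxcl10, Cxcl11 and Cxcr3 were chosen after their values were seen. Over the 24 trafficking genes, 18 were compared, 10 were positive and the median was 0.20.

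Ligands of the markers were also examined. Cd274, the PD-L1 ligand of Pdcd1, was at 5.47 in the HLF-deficient tumour and 4.77 in the wild-type tumour, 1.63-fold higher, while its receptor had a negative bound as given above. The second ligand, Pdcd1lg2, was in the background at 1.83 in the HLF-deficient tumour and 2.18 in the wild-type tumour. Cd80 and Cd86, which bind Cd28 and Ctla4, were nearly level, with differences of 0.00 and 0.10. Cd48, a ligand of Cd2 and itself a leukocyte gene, was at 3.40 in the HLF-deficient tumour and 2.99 in the wild-type tumour. Alcam, the ligand of Cd6, was at 8.79 in the HLF-deficient tumour and 8.59 in the wild-type tumour.

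Cytokines and stress ligands for these receptors were mostly near background. Il7 lay under the floor on both arrays, as its receptor did, at 2.23 in the HLF-deficient tumour and 2.02 in the wild-type tumour. Il15, which acts through Il2rb, was below it too, at 2.82 in the HLF-deficient tumour and 2.46 in the wild-type tumour. Raet1d, a stress ligand of NKG2D, was at 3.75 in the HLF-deficient tumour and 3.88 in the wild-type tumour. Pvr, a ligand of Tigit, was at 6.71 in the HLF-deficient tumour and 5.76 in the wild-type tumour, 1.93-fold higher. The ligand list of 18 genes also held Pvr and Clec2d, whose receptors Tigit and Klrb1b are outside the marker set, and the receptor chain Il15ra. Of the 18, 9 were compared, 7 were positive and 0 were beyond 2-fold as deposited. The median was 0.14, the value of Il15ra, which is named after its values were seen. Pvr passed 2-fold with each array centred on its median (1.07) or on its chemoreceptor probe sets (1.04).

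**Figure D4:**
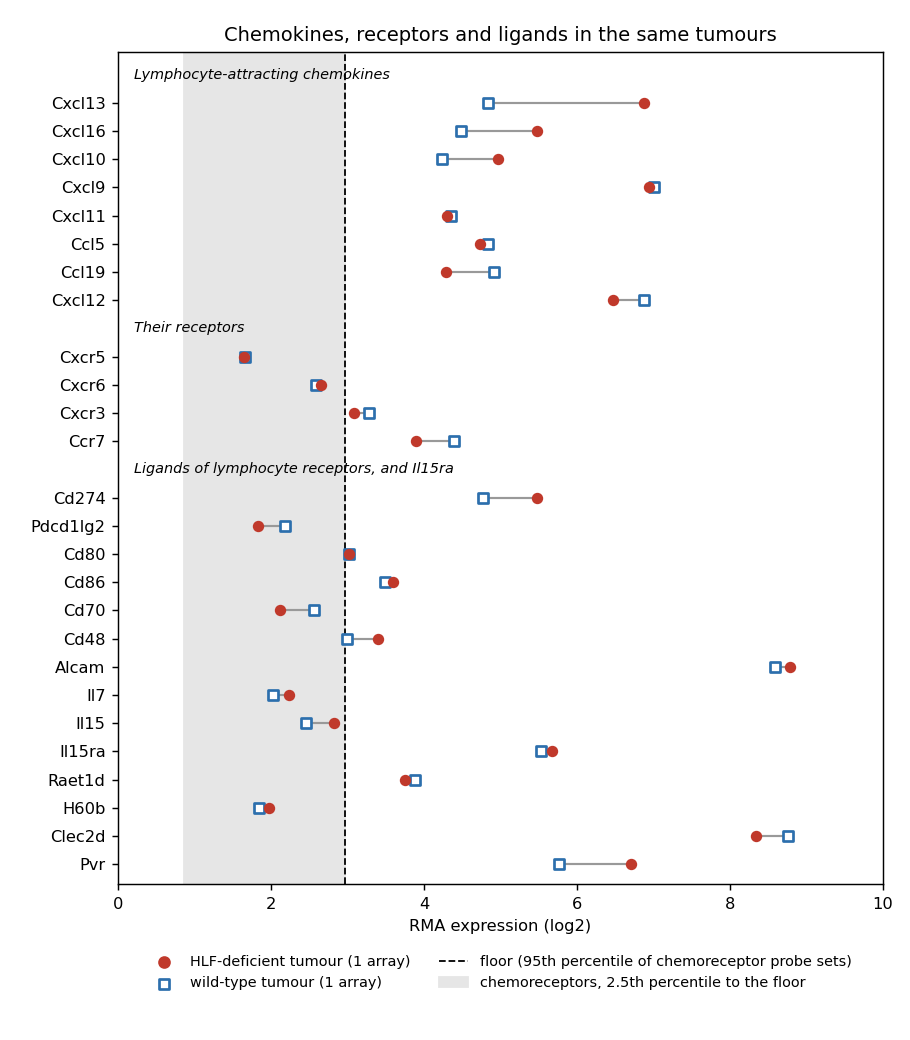
Log2 RMA expression (x axis) of chemokines, their receptors, ligands of lymphocyte receptors and Il15ra in the HLF-deficient tumour (filled circles) and the wild-type tumour (open squares). Each tumour had 1 array, and the floor of 2.97 is dashed. Cxcl13 is at 6.88 in the HLF-deficient tumour and 4.84 in the wild-type tumour, while Cxcr5 lies in the background on both arrays.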

How the data were processed

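RNA from HLF-deficient and wild-type DEN-induced tumour tissue was hybridised to Affymetrix arrays, 1 array per genotype. The authors computed the deposited log2 values by RMA with Expression Console (no version), per the submitters' processing notes. The log2 scale was read from the values, and the set of arrays normalized jointly is not stated in the sources used. RMA compresses differences near background.

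Gene names came from the platform annotation, and the 21789 probe sets naming exactly 1 gene were used. For the 999 genes with several, the probe set with the highest mean over both arrays stood for the gene. The floor and the rules of 2-fold and 1.5-fold are given with the results. Computation used Python 3.11.15 with pandas 2.3.3 and statsmodels 0.14.6, and was tested on simulated data. Text names all 34 markers, genes of the other lists beyond 2-fold as deposited, and ligands or receptors of the markers. Further genes were drawn from the up to 2 per list with the largest differences in each direction, and not all of these are named. Genes outside that rule are marked. Cholangiocyte and erythroid lists were measured too and are not described, each with 5 genes compared and 4 of them negative. Members, lists and alternatives were chosen with earlier results of these data known. Promoters are from RefSeq, GRCm38.p6. The alternatives were 4 scalings of the arrays, averaging over all probe sets of a gene, other floors and values below the floor set to it.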

Additional observations from a re-analysis of the deposited data

How the results depend on the processing

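The medians of the 22 markers, of the T and NK markers and of the B and plasma cell markers were negative under each of 9 alternatives, 1 of which could not change them (below). They lay between -0.36 and -0.08, between -0.43 and -0.04, and between -0.32 and -0.20. The lowest values of the first 2 came with a floor at the 99th percentile of the background (3.80), where 8 markers were left (Cd3e, Cd79b, Cd8a, Foxp3, Mzb1, Pou2af1, Prf1 and Zap70) in place of 22. The medians of all markers were -0.10 with each array centred on its median, -0.08 after quantile or loess normalization and -0.13 with each array centred on its chemoreceptor probe sets, a setting chosen after seeing the data. Centring added 0.12 to every difference. Under each of these 4 scalings 14 of 20 markers compared were negative, and Cd3g, Cd247 and Cd28, slightly negative as deposited, were positive. No marker was higher or lower by 2-fold under any alternative, and with the rule of 1.5-fold 1 was lower. Averaging over all probe sets of a gene could change none of these marker values, because each measured marker had 1 probe set. A higher floor, or values set to the floor, could not bring a marker past 2-fold. Those settings therefore do not test these results. With 1 array per genotype no replicate could be left out, no batch examined and no spread between tumours measured. Signal near background limits the 11 markers below the floor on both arrays, for which no difference could be read.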

Other observations

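Markers of 2 stromal cell types were measured beside the lymphocyte markers. Of 12 endothelial genes, all above the floor on both arrays, 9 had positive values, with a median of 0.39. Lyve1, a hyaluronan receptor of sinusoidal and lymphatic endothelium, was at 6.37 in the HLF-deficient tumour and 5.16 in the wild-type tumour, 2.31-fold higher, while the sinusoidal lectin Clec4g was at 7.05 in the HLF-deficient tumour and 7.82 in the wild-type tumour. Of 12 stellate cell and fibroblast genes, 10 had positive values, with a median of 0.28. The 8965 genes in the endothelial range of mean level had a median of 0.16 with 69.9% positive, against 75% of the endothelial genes. The 11281 genes in the stellate cell and fibroblast range had a median of 0.13 with 65.2% positive, against 83.3% of that list. Among all genes with mean levels of 5 to 6 and of 6 to 7, 22.4% and 17.2% were negative, with medians of 0.20 and 0.24. Rgs5, a pericyte gene, was at 6.53 in the HLF-deficient tumour and 5.59 in the wild-type tumour. The part of these cell types in the lymphocyte values was not tested.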
